A study of Mus musculus with 2 samples.

Results

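The fibroblast growth factor (FGF) genes of the newborn mouse ovary were examined in 94 of the 45101 probe sets of an Affymetrix expression array. The probe sets were chosen by name alone: each carries a single gene symbol that is Fgf, Fgfr, Spry or Spred with a number, or is Fgfrl1, Frs2, Frs3, Dusp6, Etv1, Etv4, Etv5, Klb, Flrt1, Flrt2 or Flrt3. They represent 42 of the 18193 genes that have a probe set of their own. No probe set carries Frs2 as its single symbol, and the 3 that list Etv1 list a second gene as well, so neither gene is a member. The mutant mice, Amhr2(cre/+)-SmoM2, carry a SmoM2 allele and Cre at 1 copy of Amhr2, and the control mice, Amhr2(+/+)-SmoM2, carry SmoM2 without Cre. SmoM2 is an activated form of Smoothened, the hedgehog signal transducer, and the Amhr2 locus drives Cre in somatic cells of the gonad, so the pools differ in Cre and in 1 Amhr2 copy, and in SmoM2 only through its activation by Cre. Ovaries were collected at 2 days of age, RNA from 8 mice was pooled for each genotype, and each pool was hybridised to 1 array. There is therefore no replicate error and no test, and every ratio below compares these 2 arrays.

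FGFs are heparin-binding proteins. The secreted members bind receptor tyrosine kinases on neighbouring cells together with heparan sulfate, docking proteins such as Frs2 and Frs3 pass the signal to RAS and ERK, and ERK induces its own inhibitors (the Sprouty, Spred and Dusp6 proteins) and the ETS factors Etv4 and Etv5. A smaller branch, Fgf11 to Fgf14, is not secreted and binds voltage-gated sodium channels. In the fetal mouse gonad Fgf9 and Fgfr2 are known for their part in testis development.

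A probe set was counted as measured where the higher of its 2 signals reached 80.7, the median of all signals, and this held for 35 of the 94 probe sets and 22 of the 42 genes. Ratios are log2 values, mutant over control, after 22.2, the 25th percentile of all signals, was added to each signal. Where several probe sets of a gene were measured, the one of highest mean signal stands for the gene. The only spread the arrays offer lies among probe sets that report 1 gene. Its SD on the log2 ratio was 0.38 over all genes with several, and ran from 0.47 among the dimmest 25% of probe sets to 0.32 among the brightest 25%. Both arrays had the same trimmed mean signal of 500.003. Gli1, the hedgehog readout, had a log2 ratio of 1.19, Smo 0.28 and Amhr2 -1.30. The 3' to 5' signal ratio of the beta-actin control probe sets was 8.48 on the control and 10.5 on the mutant array, and that of Gapdh was 3.28 and 4.98. The part of this difference between the arrays in the ratios below was not tested.

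Ratios were compared by the role of each gene, a grouping made after the values were seen. All 16 measured receptor, adaptor, feedback and target factor genes had log2 ratios above 0, with a median of 0.49, whereas 5 of the 6 measured FGF genes themselves lay below 0, with a median of -0.16. Among all 12308 measured genes 47.5% lay above 0 and 52.5% below, with a median of -0.02. Most of the differences were small. Of the 22 genes 2 were at least 2-fold higher in the mutant pool (background 3.21%) and 0 were at least 2-fold lower (background 1.4%). At 1.5-fold, 5 were higher (background 9.31%) and 1 was lower (background 7.88%). The 5 were Spry1, Spry4, Fgfr4, Fgfrl1 and Flrt3, and the lower gene was Fgf18. The log2 ratio exceeded the probe-set SD at its signal in 13 of the 22 genes, 11 of them above 0, and it did so in 35.4% of all measured genes. Spry4, Fgfr4 and Fgf18 passed the signal minimum in 1 pool only, so the direction of each was fixed by the minimum. Spry4 and Fgfr4 are among the 16 genes above 0, and Fgf18 is among the 5 FGF genes below 0. Of the 19 genes with both signals at or above the minimum, 1 was at least 2-fold higher, where the background was 1.96%. Above 0 lay 15 of the 19 (background 47.0%). By role, 14 of 14 receptor, adaptor, feedback and target factor genes lay above 0, and 4 of 5 FGF genes lay below 0. In these bulk pools a different number of cells of a type and a different amount of RNA per cell cannot be told apart.

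**Figure D1:**
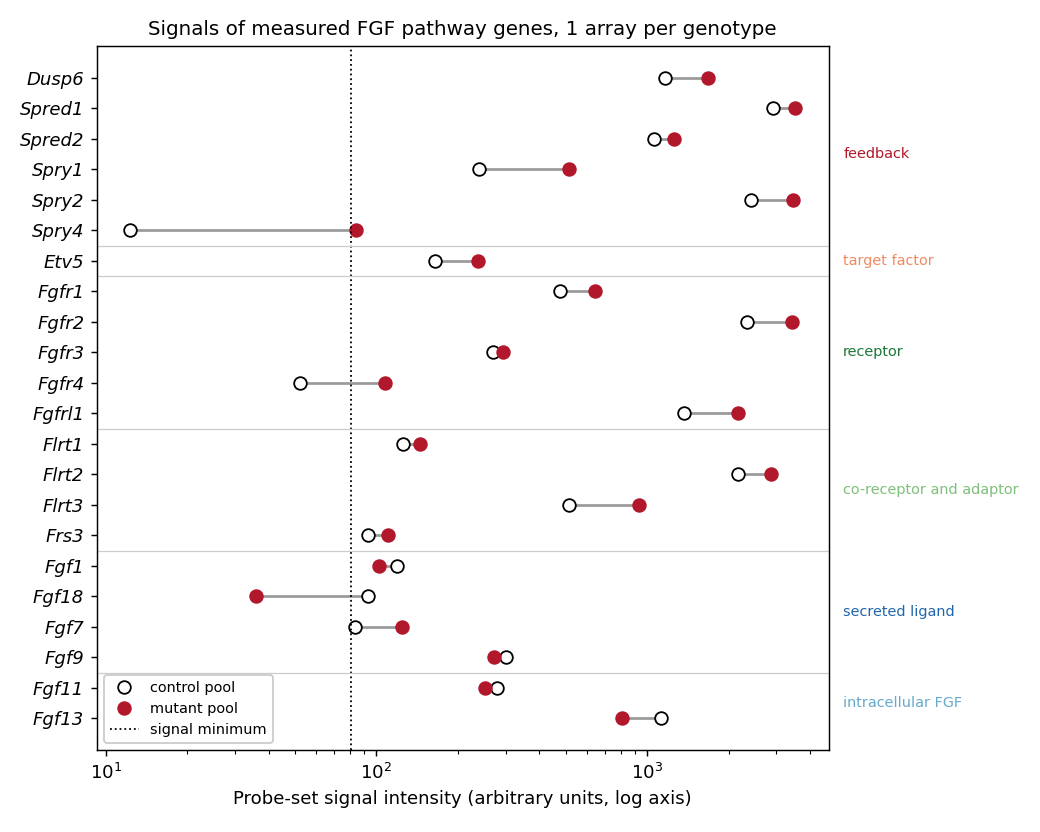
Probe-set signal in arbitrary units (log axis) of each of the 22 measured genes, ordered by role, with 1 array per point: open circles are the control pool, filled circles the mutant pool, and the dotted line is the signal minimum of 80.7. Filled circles lie to the right in all 16 genes above the ligands, and to the left in 5 of the 6 FGF genes at the bottom. Spry4, Fgfr4 and Fgf18 reached the minimum in 1 pool only, which fixed their direction.

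Of the feedback inhibitors, the largest difference between signals above the minimum was that of Spry1 (Entrez gene 24063), a Sprouty protein that blocks the path from receptor to ERK. Its single probe set read 239 on the control array and 517 on the mutant array, which is 2.16-fold higher (log2 ratio 1.05). It ranked 364 of 12308 genes from the highest ratio down. Spry2, of the same family, read 2414 on the control array and 3459 on the mutant array, 1.43-fold higher (log2 ratio 0.52). A second Spry2 probe set stayed under the minimum, at 61.6 and 79.6. Dusp6 (67603), a phosphatase that inactivates ERK and is widely used as a transcript readout of FGF signalling, read 1165 and 1678, 1.44-fold higher with a log2 ratio of 0.52. The log2 ratios of Spry2 and Dusp6 were larger than the probe-set SDs at their signals, 0.32 and 0.35.

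Spry4 had the highest log2 ratio of the 22 genes, 1.63, but on a probe set that barely reached the minimum. It read 12.3 on the control array and 84.4 on the mutant array, so the difference above the minimum is only at least 1.05-fold. A second Spry4 probe set was also brighter in the mutant pool, at 69.6 against 17.5, yet under the minimum in both. Its other 2 probe sets were dimmer in the mutant pool, at 1.4 and 2.8 against 12.4 and 11.9.

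The Spred genes, whose proteins hold back RAF activation, differed less. Spred1 read 2907 on the control array and 3527 on the mutant array (log2 ratio 0.28), within the probe-set SD of 0.32. Its 6 measured probe sets ranged from -0.02 to 0.40. Spred2 read 1057 and 1261 (0.25), and its dimmer second probe set had 0.57. Spred3 and Spry3 were not measured, with signals from 22.2 to 63.8.

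Of the ETS target factors, Etv5 was measured and Etv4 was not. Etv5 (104156), which FGF signalling induces in many embryonic tissues, read 164.7 on the control array and 237 on the mutant array, 1.44-fold higher with a log2 ratio of 0.47. Its other 2 probe sets were under the minimum and brighter in the mutant pool as well, at 48.0 against 35.5 and 33.3 against 13.4. The 2 Etv4 probe sets read between 5.0 and 20.3. Over the 7 measured feedback and target factor genes, 12 of 13 measured probe sets had log2 ratios above 0. Among all 23957 measured probe sets, 10934 did. Of the 13, 6 report Spred1 and 2 report Spred2, so they do not stand for separate genes. The Spry4 probe set among the 12 reached the minimum in the mutant pool only, so its sign was fixed by the minimum.

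The promoters of Spry1, Spry2 and Dusp6, the feedback genes with the largest ratios on signals above the minimum in both pools, and of the receptor-like gene Fgfrl1 are shown because these genes were higher in the mutant pool. Each runs from 250 bases before to 50 bases after the start of the gene in RefSeq, build GRCm38.p6: Spry1 at chr3:37639697-37639996 on the plus strand, Spry2 at chr14:105896770-105897069 on the minus strand, Dusp6 at chr10:99262981-99263280 on the plus strand and Fgfrl1 at chr5:108693979-108694278 on the plus strand. Capitals mark 3 motifs searched on both strands: the ETS core CCGGAAG, the Gli core GACCACCC and the GC box GGGCGG.
Spry1: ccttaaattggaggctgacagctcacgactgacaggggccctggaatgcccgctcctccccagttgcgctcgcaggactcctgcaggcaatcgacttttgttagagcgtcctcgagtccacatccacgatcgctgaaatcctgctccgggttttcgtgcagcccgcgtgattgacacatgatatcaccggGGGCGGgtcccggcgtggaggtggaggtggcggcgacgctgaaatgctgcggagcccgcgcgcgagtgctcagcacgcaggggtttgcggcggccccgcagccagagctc
Spry2: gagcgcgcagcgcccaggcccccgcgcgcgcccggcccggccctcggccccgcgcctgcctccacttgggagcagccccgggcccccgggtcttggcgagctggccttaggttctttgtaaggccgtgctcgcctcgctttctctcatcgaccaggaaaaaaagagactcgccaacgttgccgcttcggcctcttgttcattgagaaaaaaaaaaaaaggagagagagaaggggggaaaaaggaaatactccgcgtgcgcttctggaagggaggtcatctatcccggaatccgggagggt
Dusp6: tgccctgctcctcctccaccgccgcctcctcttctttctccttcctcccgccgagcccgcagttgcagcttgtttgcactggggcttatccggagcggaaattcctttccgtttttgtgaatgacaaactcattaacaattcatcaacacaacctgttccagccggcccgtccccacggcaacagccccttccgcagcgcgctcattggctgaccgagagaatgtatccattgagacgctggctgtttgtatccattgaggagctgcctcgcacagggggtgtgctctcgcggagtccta
Fgfrl1: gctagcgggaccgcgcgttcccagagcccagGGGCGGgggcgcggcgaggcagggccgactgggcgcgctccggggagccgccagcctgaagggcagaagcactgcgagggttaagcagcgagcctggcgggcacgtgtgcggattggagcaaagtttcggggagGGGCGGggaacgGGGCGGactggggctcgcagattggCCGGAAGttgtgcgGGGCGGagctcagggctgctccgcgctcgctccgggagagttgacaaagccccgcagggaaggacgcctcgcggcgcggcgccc

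The 300-base windows were rich in G and C, from 57.3% in Dusp6 to 73.7% in Fgfrl1. The Fgfrl1 window holds 4 GC boxes and 1 ETS core, which begins 48 bases before the start, and no marked motifs overlap. The Spry1 window holds 1 GC box, and the letters searched are not in the Spry2 and Dusp6 windows. The promoter table held 39 windows of 31 of the 42 genes. An ETS core was found in 1 of the 39 (2.56%) against 8.86% of all 32851 windows in the table. A Gli core was found in 1 (2.56%), that of the unmeasured Fgf14, against 0.807% of all windows, and a GC box in 24 (61.5%) against 35.7%. A match is a run of letters and not a binding site.

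All 5 receptor genes had log2 ratios above 0, with a median of 0.55. By log2 ratio 2 of them, Fgfrl1 and Fgfr4, reached 1.5-fold (background 9.31%), but the control signal of Fgfr4 was under the minimum, so Fgfrl1 alone did so on signals above it in both pools. Fgfr2 (14183) read 2334 on the control array and 3433 on the mutant array, 1.47-fold higher (log2 ratio 0.55). Its second measured probe set read 117 and 135, a log2 ratio of 0.17, and the last was under the minimum. Fgfr1 read 475 and 644.5 (0.42), 1.36-fold higher, but its other measured probe set read 188 and 183 (-0.04). The probe sets that stand for Fgfr1 and Fgfr2, like both of Fgfrl1, are of a type that can detect several transcripts. Without such probe sets Fgfr1 had the ratio of its other one, and Fgfr2 and Fgfrl1 had no measured probe set. Fgfr3 read 270.4 and 292.5 (0.11), well within the probe-set SD of 0.38.

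Fgfr4 was near the minimum. It read 52.1 on the control array and 108 on the mutant array, at least 1.33-fold higher (log2 ratio 0.81). Its other 4 probe sets stayed under the minimum and went both ways. The brighter in the mutant pool were at 64.5 and 44.3 against 2.6 and 9.3, and the dimmer at 4.0 and 0.8 against 18.5 and 10.2.

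Fgfrl1 (116701) was higher on both of its probe sets. It is a receptor-like protein that binds FGF and lacks the tyrosine kinase domain. The first read 1370 on the control array and 2161 on the mutant array, 1.58-fold higher (log2 ratio 0.65). The second read 314.5 and 621.5 (0.93). Both ratios were larger than the probe-set SD, and both probe sets are of the type that can detect several transcripts.

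Transmembrane partners and docking proteins were also above 0, with a median log2 ratio of 0.31 over 4 measured genes. Flrt3 (71436), a leucine-rich repeat protein that binds FGF receptors and guides cell adhesion, read 516 on the control array and 936 on the mutant array, 1.82-fold higher (0.83). Its second measured probe set did not share the difference, at 149.6 and 159 (0.08). Flrt2, of the same family, read 2158 and 2869 (0.41), with 0.46 on a dim probe set and -0.22 on the remaining one, at 647 and 554. Flrt1 and the docking protein Frs3 had ratios of 0.18 and 0.21 on signals between 93.0 and 145, within the probe-set SD of 0.47. Klb, the co-receptor of endocrine FGFs, was not measured, with signals from 1.8 to 62.5.

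**Figure D2:**
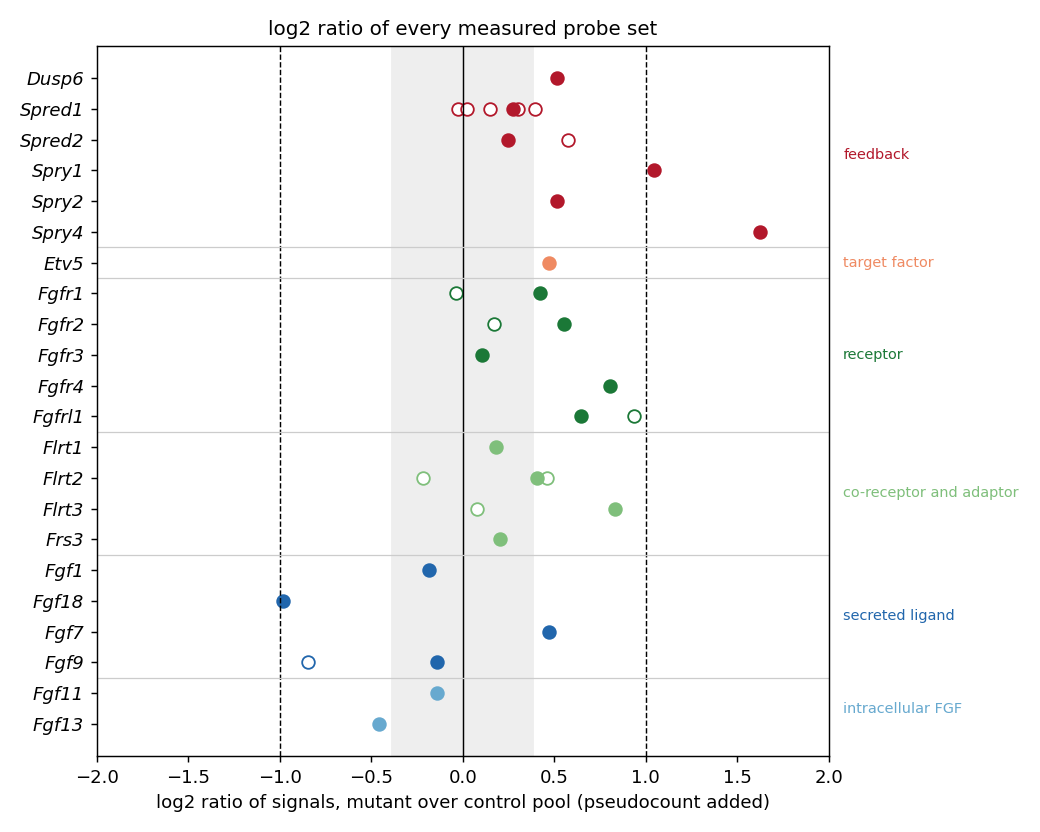
log2 ratio of signals, mutant over control, for all 35 measured probe sets by gene and role: filled circles are the probe set that stands for the gene, open circles its others. The grey band is 1 SD between probe sets of a gene (0.38) and dashed lines mark 2-fold. Fgfr1, Flrt2 and Spred1 each have a filled circle above 0 and an open circle below it, while the open circles of Fgfrl1 and Fgf9 lie further from 0 than the filled ones.

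Most FGF genes were too dim to measure. Of the 15 genes of secreted paracrine ligands 4 were measured, of the 3 endocrine ligands 0, and of the 4 intracellular FGFs 2. The paracrine ligands not measured were Fgf2, Fgf3, Fgf4, Fgf5, Fgf6, Fgf8, Fgf10, Fgf16, Fgf17, Fgf20 and Fgf22, and their 19 probe sets read between 0.8 and 51.8. Fgf15, Fgf21 and Fgf23 read between 1.1 and 53.3, and Fgf12 and Fgf14 between 2.6 and 38.9. A signal under the minimum is a bound on these arrays and does not show that the transcript is absent.

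Fgf9 (14180) had 2 measured probe sets, both lower in the mutant pool and by unequal amounts. The probe set with the higher mean signal read 302 on the control array and 272 on the mutant array (log2 ratio -0.14), within the probe-set SD. The other read 169.6 and 84.4, a log2 ratio of -0.85, or 2.01-fold lower before the added 22.2. Fgf18, a ligand known from skeletal and lung development, read 92.9 and 36.0 on its single probe set, at least 1.15-fold lower (-0.98). Fgf1, which binds every FGF receptor, read 119 and 102 (-0.18).

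Fgf7 was the exception among the ligands. A mesenchymal factor that acts on epithelial cells through Fgfr2, it read 83.3 on the control array and 123.9 on the mutant array, 1.49-fold higher (log2 ratio 0.47). The difference was no larger than the probe-set SD of 0.47 at this signal, and a second Fgf7 probe set under the minimum went the other way, at 55.2 and 5.1. Among the intracellular FGFs, Fgf13 (14168) read 1121 on the control array and 811 on the mutant array, 1.38-fold lower (-0.46), which is larger than the probe-set SD of 0.35. Fgf11 read 279 and 251 (-0.14), within its probe-set SD of 0.38. The other probe sets of Fgf1, Fgf11 and Fgf13 read from 2.2 to 76.0, under the minimum in both pools.

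**Figure D3:**
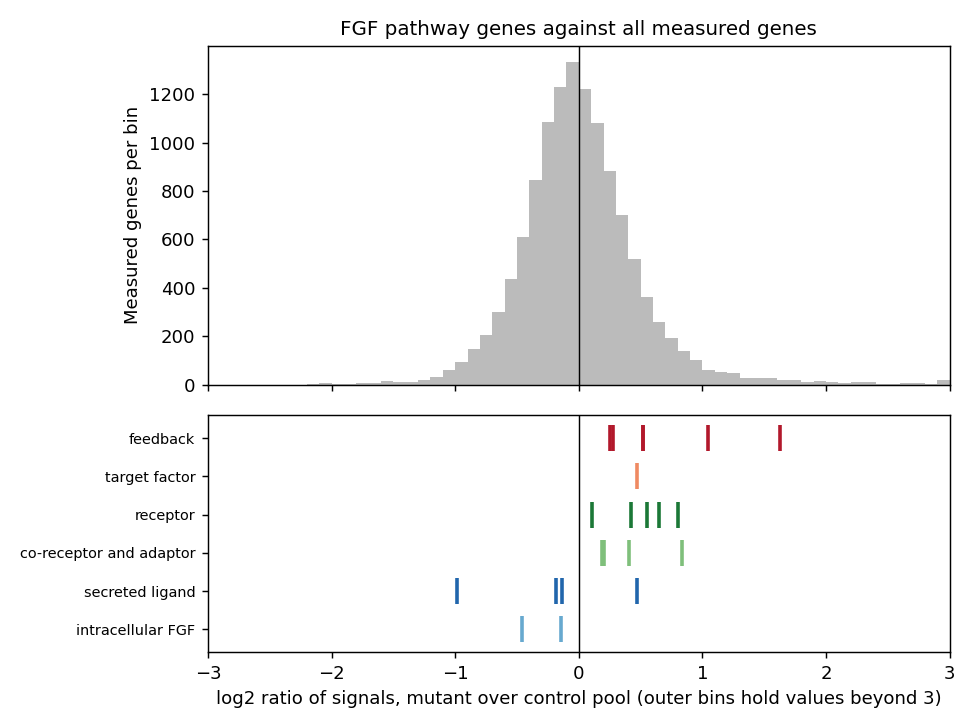
Upper panel: number of measured genes (12308 in all) per 0.1-wide bin of the log2 ratio, mutant over control. Lower panel: each tick is 1 of the 22 measured FGF pathway genes in the row of its role, and the ticks of feedback genes, target factor, receptors and adaptors all lie right of 0 while 5 of the 6 FGF ticks lie left of it. The side of Spry4, Fgfr4 and Fgf18 was fixed, as each reached the minimum in 1 pool only.

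The enzymes and adaptors that carry the signal onward differed little. Of 23 listed genes from Grb2 to Elk1, 17 were measured, the rest having no probe set named for them alone. Of the 17, 0 reached 1.5-fold in either direction (backgrounds 9.31% higher and 7.88% lower). Their median log2 ratio was 0.02, and the widest were Sos2, a RAS exchange factor (0.43, 1425 on the control array and 1933 on the mutant array), and Map2k1, the kinase of ERK (-0.26, 1403 and 1168). Of 18 other genes that ERK signalling induces or that feed back on it, 15 were measured, with a median of 0.01. Of the 15, 2 were at least 1.5-fold higher (background 9.31%) and 1 lower (background 7.88%). The higher genes were Dusp5 and, named after its values were seen, the growth factor-induced transcription factor Myc (0.66). Dusp5, a nuclear ERK phosphatase, read 12.9 and 80.8, so its log2 ratio of 1.55 stands for a bound of at least 1.001-fold. Hmga2, a chromatin protein of embryonic cells, was 1.71-fold lower, at 732 against 1249, and its other 2 measured probe sets had -0.97 and -1.27.

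Heparan sulfate enzymes, carriers and FGF-binding proteins had a median log2 ratio of -0.10 over the 21 that were measured among 24. The 2 that reached 2-fold, upward (background 3.21%), were glypicans, which are membrane-anchored heparan sulfate carriers. Gpc6 read 417 on the control array and 1122 on the mutant array (2.69-fold), with 0.63 to 1.29 on its other 3 measured probe sets. Gpc3 read 1540 and 3295 (2.14-fold). The 1 gene at least 1.5-fold lower (background 7.88%) was another carrier, the syndecan Sdc1, picked once its values were known, at 3245 and 1899 (log2 ratio -0.77). Of the 21 genes 9 lay above 0 and 12 below. Of 14 other receptor tyrosine kinases, all measured, 4 were at least 1.5-fold higher (background 9.31%) and 2 lower (background 7.88%), with a median of 0.17. The platelet-derived growth factor receptors Pdgfra and Pdgfrb were 2.20-fold and 1.80-fold higher. The other 2 measured Pdgfra probe sets had log2 ratios of 1.09 and 1.10, and the other Pdgfrb probe set had 0.52. Egfr (log2 ratio 0.83) and Ntrk2 (0.78) were the other higher genes and Erbb3 (-0.81) and Ret (-0.65) the lower ones, all 4 picked once their values were known. Ret read 63.5 on the mutant array, under the minimum, so it was at least 1.39-fold lower. These lists were chosen with earlier results of the same arrays known.

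**Figure D4:**
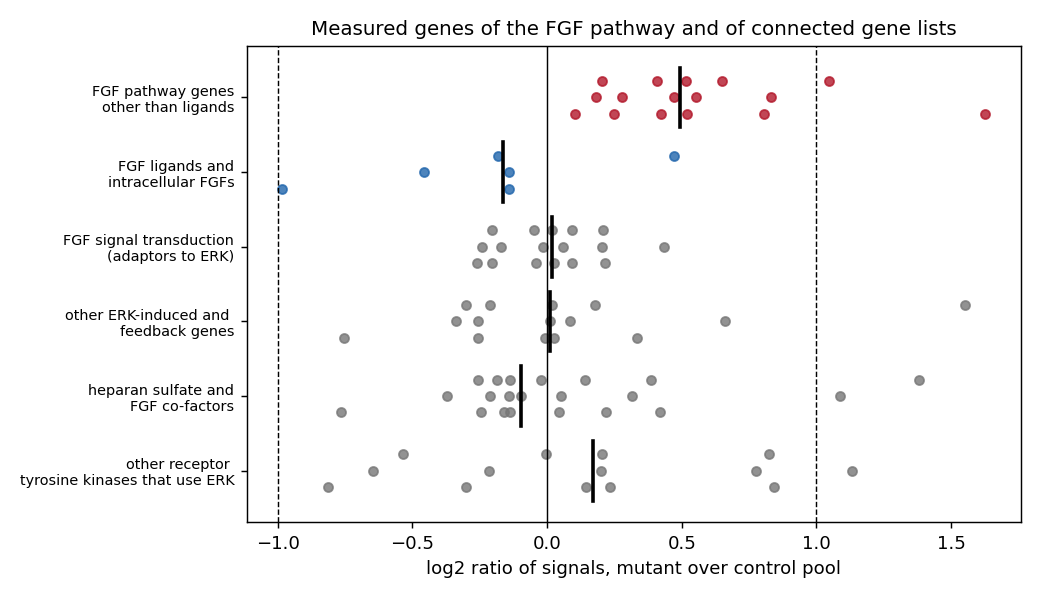
log2 ratio of signals, mutant over control, with 1 point per measured gene and a black bar at the median of each row; dashed lines mark 2-fold. The 16 FGF pathway genes other than ligands have a median of 0.49, and the 4 connected lists have medians from -0.10 to 0.17. The 16 include Spry4 and Fgfr4, which reached the signal minimum in the mutant pool only.

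Markers of the cell types in the tissue also differed between the pools. The summed signal of 7 measured interstitial stroma markers was 60363 on the control array and 89214 on the mutant array. The ratio of sums, mutant over control, was 1.48. Of the 7, 5 were 1.5-fold or more higher (background 9.31%) and 0 lower (background 7.88%). All 8 germ cell and all 7 pregranulosa markers were measured. The summed signal of the germ cell markers was 30653 and 19198.5 (ratio 0.626). That of the pregranulosa markers was 35279 and 25685 (ratio 0.728). In each list 5 were at least 1.5-fold lower (background 7.88%) and 0 higher (background 9.31%). The median log2 ratio was 0.76 for the stroma, -0.72 for the germ cell and -0.95 for the pregranulosa markers. For the other lists the ratio of sums, which the brightest genes set, stands beside the median log2 ratio. They were 1.26 and 0.47 for 6 endothelial, 1.56 and 0.54 for 5 smooth muscle and pericyte, and 1.69 and 0.77 for 5 macrophage markers. The 4 steroidogenic markers had 6.47 and 5.39, all 4 being at least 2-fold higher by log2 ratio (background 3.21%). Among them Cyp17a1 and Cyp11a1 read 38.8 and 29.6 on the control array, under the minimum. Both therefore had to be higher, and their log2 ratios rest on the added 22.2. The 6 surface epithelium markers had 0.647 and -0.24, with 2 at least 1.5-fold lower (background 7.88%). The 4 Müllerian duct markers had 0.998 and -0.21, but went both ways, with 2 above 0 and 2 below. At 1.5-fold 1 was higher (background 9.31%) and 1, under the minimum in the mutant pool, was lower (background 7.88%). None of the skeletal muscle and adipocyte markers was measured, and of the nerve and glia list 1 was, at 68.9 and 162. Amhr2, 1 of the 7 pregranulosa markers, is also the gene that carries Cre at 1 copy in the mutant mice. It read 8591 on the control array and 3485.5 on the mutant array (log2 ratio -1.30). The part of the allele in its difference cannot be told apart here. Pdgfra is also a stroma marker and Kit, among the receptor tyrosine kinases, a germ cell marker. The part of cell composition in the FGF pathway ratios was not tested.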

How the data were processed

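RNA of 8 mice per genotype, isolated animal by animal and pooled in equal amounts per the labels' protocols, was hybridised to 1 array for each pool. The deposited intensity values are linear probe-set signals, 1 column per array; the submitters' processing notes name GCOS, whose settings were not given in the sources used here. The intensities were used as deposited, with no second scaling, and detection calls were not used here. Of 45101 probe sets, 34958 had 1 gene symbol in the platform annotation, 932 had several and 9211 were not listed; only those with 1 symbol were named. All 94 member probe sets matched a RefSeq gene by Entrez ID.

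Log2 ratios, counts at 2-fold and 1.5-fold and medians were computed with Python 3.11.15, numpy 2.4.6 and pandas 2.3.3 over all genes. Where 1 signal lay under 80.7, the bound is the brighter signal divided by 80.7. Other folds are plain signal ratios, while counts use the log2 ratio. The code was tested on simulated data. The number of arrays limits the precision: with 1 array per group no p-value was computed. The SD between probe sets is the pooled SD over 13386 probe sets of 5118 genes and can hold differences between transcripts. Every measured member is named; from each of the 4 connected lists, genes at 2-fold or, where fewer than 2, the 2 of largest absolute ratio; the 12 marker lists are given as sums. The members and lists were chosen with earlier results of these data known, and 11 alternative settings were tried.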

Additional observations from a re-analysis of the deposited data

How the results depend on the processing

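No paired analysis was possible because each group holds 1 array. Under 11 alternatives, 20 of the 22 measured genes kept the sign of their log2 ratio wherever they were measured. The exceptions were Fgfr1, at -0.04 without probe sets shared between transcripts or with the second measured probe set of a gene, and Flrt2, at -0.22 with the second. Of 226 gene values, 10 moved by more than the probe-set SD. Among the genes called at 2-fold, which are only Spry1 and Spry4, 0 ratios changed sign. Each of these has 1 measured probe set, so settings that choose or average among measured probe sets could not change its ratio. The count of genes at least 2-fold higher was 2 of 22 (background 3.21%). It was 0 of 22 (background 2.01%) when the median signal served as pseudocount and 1 of 22 (2.92%) with dim values raised to the minimum. It was 1 of 11 (2.37%) with the minimum at the 75th percentile and 1 of 19 (1.96%) with both signals at the minimum. With no minimum it was 5 of 42 (3.73%). The count at least 1.5-fold higher was 5 of 22 (background 9.31%). It was 3 of 22 (8.78%) with dim values raised and 3 of 11 (7.05%) at the 75th percentile. It was 3 of 19 (7.17%) with both signals at the minimum and 10 of 42 (11.03%) with no minimum. The count at least 1.5-fold lower was 1 of 22 (background 7.88%, taken at the main setting only). It was 0 with the median signal as pseudocount, with dim values raised, at the 75th percentile and with both signals at the minimum. It was 3 of 42 with no minimum and 2 of 22 with second probe sets. The median log2 ratio of the genes (0.42) was 0.17 with no minimum, 0.29 with probe sets averaged, 0.26 without shared probe sets and 0.18 with second probe sets. Spry1 stayed between 0.90 and 1.11, and Spry4 ranged from 0.06 to 1.93.

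Alternatives for the split by role and for the connected lists were added after the data were seen. The receptor, adaptor, feedback and target factor genes above 0 (16 of 16) were 14 of 16 with second probe sets (background 44.2%). They were 13 of 14 without shared probe sets (background 46.25%) and 17 of 20 with no minimum (background 47.9%). The FGF genes below 0 (5 of 6) were 12 of 22 with no minimum. In that setting 47.9% of all genes lay above 0 and the rest at or below it, so the 12 of 22 is near the share of all genes. Medians of the connected lists moved by more than 0.1 in 4 of 44 values. The other scalings moved the median of all genes by less than 0.1; the share of 2-fold calls that were higher (69.7%) was 83.7% with the larger pseudocount, 79.1% with the lowess curve removed, 79.1% at the 75th percentile and 59.6% with second probe sets. Signal near the minimum limits Spry4, Fgfr4, Fgf18, Fgf7, Frs3 and the dimmer probe set of Fgf9.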
